A study of Mus musculus with 26 samples.

Results

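RNA-seq levels of 10 genes of lymphocyte cytotoxicity, out of 35882 genes with a summed estimate, were followed through TCRTg101 in mice with and without leukemia. The genes were listed by name, with earlier results of these data known. They are the granzymes *Gzma*, *Gzmb*, *Gzmc*, *Gzmk* and *Gzmm*, the pore-forming protein *Prf1*, the granule genes *Srgn* and *Nkg7*, and the death ligands *Fasl* and *Tnfsf10*. TCRTg101 are CD8+ T cells whose transgenic receptor, taken from a T cell clone, recognizes the mouse leukemia C1498 through an antigen not yet defined. They were recovered by flow cytometric sorting and sequenced as 14 low-input libraries. Cells from leukemia-bearing mice had been transferred into those mice, while the labels of the control libraries mention no transfer. The labels give strain C57BL/6, genotype wild type and an age of 6 weeks for each of these libraries, although the cells carry the receptor transgene. Controls without leukemia were 2 spleen libraries of naive cells at day 0 and 1 spleen library of cells from untreated mice at day 18. From leukemia-bearing mice came 2 early spleen libraries (day 7), 1 mid spleen library (day 14), 2 early liver libraries (day 7), 3 mid liver libraries (days 13, 13 and 14) and 2 late liver libraries (days 18 and 16). A further spleen library at day 18 held undivided cells, sorted as CTVhi because they had kept a division dye. Since all controls were spleen libraries, a comparison of liver with control changes tissue as well as leukemia. Against the 2 day 0 controls, labelled naive, it also changes the day and may change transfer into a host. These differences cannot be told apart. All cells came from a line with 1 receptor, and the labels do not say whether libraries of a group came from separate mice, so p-values measure the spread between these libraries.

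Cytotoxic lymphocytes kill along a granule route and a receptor route. In the granule route, perforin opens the target membrane to granzymes, serine proteases that are held in the granule on the proteoglycan serglycin and are switched on there by cathepsin C. In the receptor route, Fas ligand and TRAIL on the lymphocyte bind Fas and the TRAIL receptor on the target and start caspase activation. Naive CD8+ T cells carry little granzyme, and effector cells induce it after antigen recognition and division, under factors that include T-bet, Eomes, RUNX and AP-1 proteins.

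The granzymes lie in 3 places in the mouse genome (GRCm38, GENCODE vM21). *Gzmb* (ENSMUSG00000015437.5, chr14:56258838-56262260, reverse strand) and *Gzmc* (ENSMUSG00000079186.3, chr14:56231441-56234656, reverse strand) are 24182 bases apart in the cluster that also holds *Gzmd*, *Gzme*, *Gzmf*, *Gzmg* and *Gzmn*. *Gzma* (ENSMUSG00000023132.8, chr13:113093825-113100981, reverse strand) and *Gzmk* (ENSMUSG00000042385.14, chr13:113171608-113225908, reverse strand) are 70627 bases apart. *Gzmm* (ENSMUSG00000054206.2, chr10:79689020-79695261, forward strand) stands apart from them on a chromosome that also carries *Prf1* (ENSMUSG00000037202.6, chr10:61297833-61304680, forward strand) and *Srgn* (ENSMUSG00000020077.14, chr10:62493833-62527451, reverse strand). *Fasl* (ENSMUSG00000000817.10) is at chr1:161780689-161788495 on the reverse strand, *Tnfsf10* (ENSMUSG00000039304.11) at chr3:27317028-27342427 on the forward strand and *Nkg7* (ENSMUSG00000004612.9) at chr7:43437073-43438249 on the forward strand. *Gzmk* overlaps *Esm1* on the other strand, but their transcripts shared none of the 31-base words by which kallisto assigns reads.

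Each of the 10 genes had a promoter in RefSeq (GRCm38.p6), and *Gzmm* and *Srgn* had a pair, which gave 12 windows of 250 bases before a transcription start. The windows of 4 genes are shown here because these genes mark the range of the responses below: *Gzmb* had the largest fitted rise in late liver, *Prf1* and *Fasl* rose in the granule and receptor routes, and *Gzmm* was not called. They lie at chr14:56262335-56262584, reverse strand (*Gzmb*), chr10:61297586-61297835, forward strand (*Prf1*), chr1:161788496-161788745, reverse strand (*Fasl*) and chr10:79688770-79689019, forward strand (*Gzmm*). Each is written 5′ to 3′ on the gene's strand, and capitals mark matches, on either strand, to the letters TGANTCA (AP-1), TGTGGT (RUNX), AGGTGT (T-box) or TTCNNNGAA (STAT).
Gzmb: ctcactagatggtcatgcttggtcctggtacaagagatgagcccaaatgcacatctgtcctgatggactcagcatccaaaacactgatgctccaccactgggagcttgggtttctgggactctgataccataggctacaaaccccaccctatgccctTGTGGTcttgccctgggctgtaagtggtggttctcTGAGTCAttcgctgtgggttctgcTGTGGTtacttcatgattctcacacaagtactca
Prf1: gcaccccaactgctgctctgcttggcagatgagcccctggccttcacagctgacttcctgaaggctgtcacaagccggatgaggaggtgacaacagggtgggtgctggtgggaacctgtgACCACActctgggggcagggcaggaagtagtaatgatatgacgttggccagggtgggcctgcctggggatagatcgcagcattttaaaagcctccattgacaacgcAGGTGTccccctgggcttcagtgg
Fasl: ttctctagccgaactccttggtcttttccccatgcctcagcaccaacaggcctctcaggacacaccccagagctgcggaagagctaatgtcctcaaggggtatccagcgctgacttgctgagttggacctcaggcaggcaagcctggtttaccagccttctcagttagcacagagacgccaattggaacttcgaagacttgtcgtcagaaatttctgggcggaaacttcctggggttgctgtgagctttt
Gzmm: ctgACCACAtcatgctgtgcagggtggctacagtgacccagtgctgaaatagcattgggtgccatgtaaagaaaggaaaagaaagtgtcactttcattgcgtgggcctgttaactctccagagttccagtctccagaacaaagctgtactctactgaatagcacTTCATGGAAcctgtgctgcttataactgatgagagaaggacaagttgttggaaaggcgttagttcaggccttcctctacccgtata
The *Gzmb* window held the AP-1 letters beginning at base -58 and the RUNX letters at bases -93 and -34, counted from -1 at the base before the start. *Prf1* held RUNX letters at -130 and T-box letters at -24, *Gzmm* held RUNX letters at -247 and STAT letters at -86, and *Fasl* held none of the 4. Over the 12 windows, RUNX letters were in 7, T-box letters in 4, STAT letters in 2 and AP-1 letters in 1. Of all 32851 RefSeq windows of this length, 14.0% held the RUNX letters, 11.8% the T-box letters, 7.02% the STAT letters and 6.75% the AP-1 letters. A match is a string of letters and not a measured binding site.

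Libraries held 22918996 to 71358287 estimated counts. The 7 CD8 T cell markers were present in every library, with a summed level of 3739 to 8836 CPM (estimated counts scaled to library size by the trimmed mean of M-values, TMM). The libraries were made in a TG and an XC series, named in their titles, and the TG series holds day 0 control replicate 1, mid liver replicate 1 and late liver replicate 1. Other cells left RNA that differed between groups: the 8 hepatocyte markers summed to 2.78 to 299 CPM in mid and late liver libraries and at most 0.26 in controls, while the myeloid list reached 639 CPM and the erythroid list 20377 CPM in day 0 controls. Natural killer cells express many of the same cytotoxic genes, and their 8 markers summed to 2.44 to 288 CPM in controls, at most 17.9 in mid liver, 47.0 and 48.3 in late liver and 2.69 CPM in undivided cells, with 4 of 8 tested and 0 called in late liver. The 288 CPM of day 0 control replicate 1 were mostly *Tyrobp* (152 CPM) and *Fcer1g* (128 CPM). *Fcer1g* was at 128, 9.68 and 0.325 CPM in controls and 24.7 and 35.3 CPM in late liver. *Ncr1* was at 1.99, 1.92 and 0 CPM in controls and at most 0.283 CPM in late liver. *Klra4*, *Klra8* and *Klra9* were at 0.509 to 1.12 CPM in day 0 controls. They were at most 0.0975 CPM in the day 18 control and at most 0.0852 CPM in late liver. *Klre1* was at 1.02, 1.25 and 0.845 CPM in controls and 11.5 and 5.77 CPM in late liver. *Klrb1c* was at 2.28, 2.46 and 0.618 CPM in controls and 5.23 and 5.71 CPM in late liver. The 3 markers of CD4 T cells summed to 0.553 to 7.36 CPM in controls and 11.8 and 11.9 CPM in late liver, where *Zbtb7b* and *Foxp3* were higher by edgeR and *Cd4* was at 0.567 and 0.710 CPM. The part of these cells in the levels below was not tested.

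The first question was which of these genes differed between liver TCRTg101 at the late time point and controls. In total, 8 of the 10 genes were higher in late liver by edgeR's quasi-likelihood test (Benjamini-Hochberg adjusted p under 0.05), against 19.8% of all 14596 genes tested, and 0 of 10 were lower, against 17.7%. The rises spanned *Gzmb*, *Gzmk*, *Gzmc*, *Gzma*, *Prf1*, *Nkg7*, *Fasl* and *Tnfsf10*. The median log2 fold change of the 10 genes was 3.71 and that of all genes tested was -0.03. Every late library was above every control for 9 of the 10 genes, all but *Gzmm*, as it was for 28.7% of all genes. At the mid time point the same 8 genes were higher, against 17.3% of all genes, and 0 were lower, against 13.9%. Every mid liver library was above every control for 8 of the 10 genes (21.8% of all genes), which left out *Gzmm* and *Tnfsf10*. As these are bulk libraries, more cells with a transcript and more RNA per cell cannot be told apart.

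**Figure D1:**
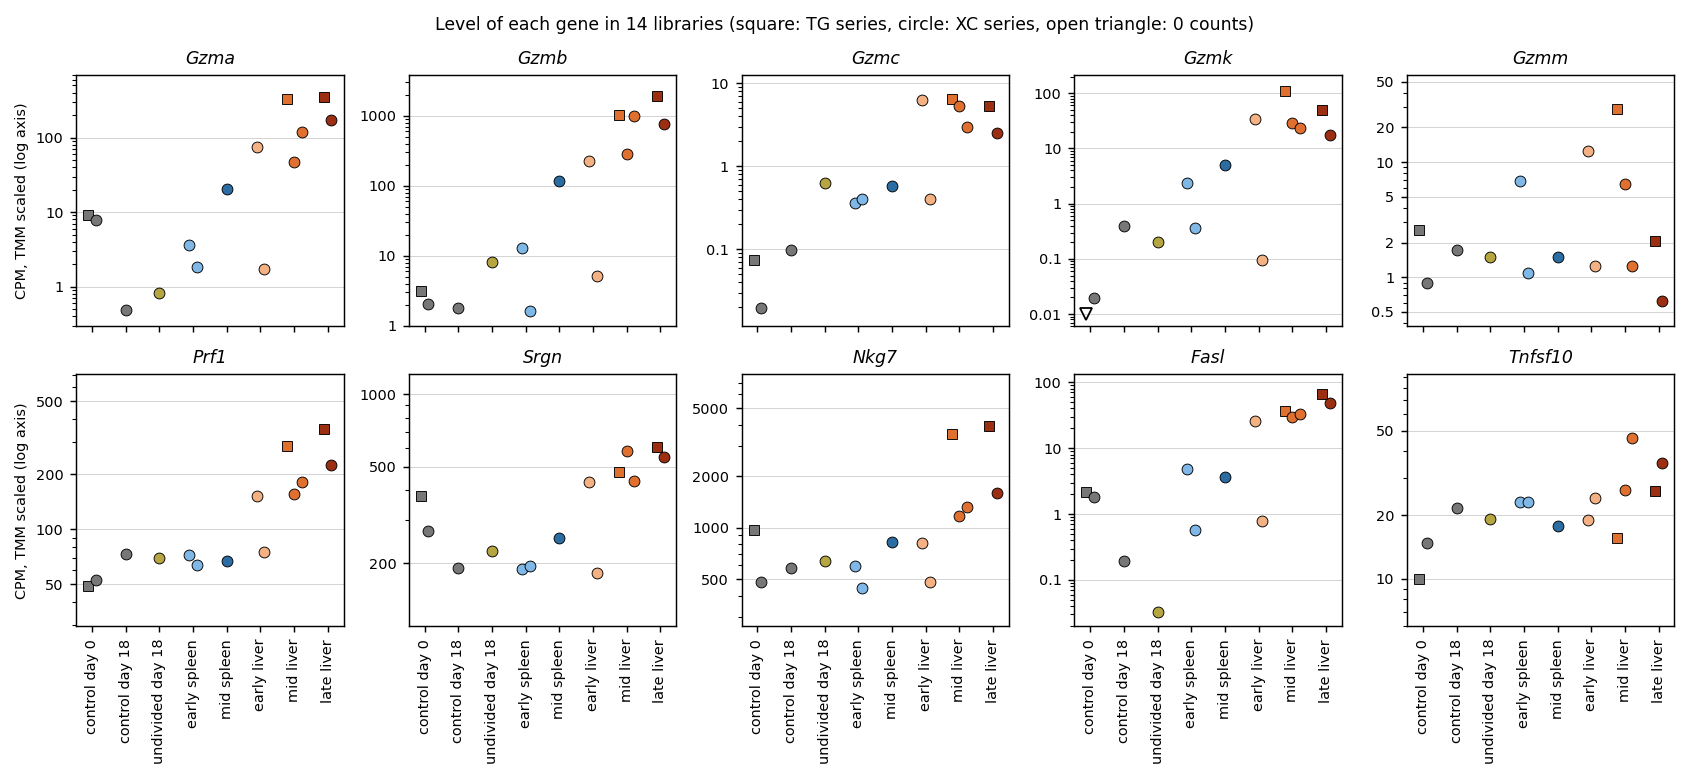
Level of each gene in the 14 libraries, as TMM-scaled CPM on a log axis, with 1 point per library in 8 groups; squares are TG series libraries, circles XC series libraries, and the open triangle is a library with 0 counts. *Gzmb*, *Gzma*, *Gzmk*, *Gzmc* and *Fasl* in mid and late liver libraries all lie above the controls, and the early liver replicates lie far apart.

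Granzyme B cleaves after aspartate and can activate caspases directly. *Gzmb* was at 3.16 and 2.07 CPM in day 0 controls and 1.79 in the day 18 control. It was at 1024, 283 and 979.6 CPM in mid liver and at 1947 and 776 CPM in late liver. The lowest mid library was thus far above the highest control, and the mid and late ranges overlapped. The fitted log2 fold change was 8.33 (SE 1.43, edgeR adjusted p = 0.0220) at the mid and 8.92 (SE 1.50, adjusted p = 0.0110) at the late time point. Within the TG series the late to control ratio of CPM was 616, and within the XC series it was 402.

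Granzyme A and granzyme K are trypsin-like proteases encoded near each other on chromosome 13. *Gzma* was uneven in controls, at 9.18 and 7.73 CPM on day 0 and 0.488 CPM on day 18. It reached 332, 46.9 and 119 CPM in mid liver and 351 and 175 CPM in late liver, so no liver library of these groups overlapped the controls. Its log2 fold change was 4.61 (SE 1.40, edgeR adjusted p = 0.0438) at the mid and 5.26 (SE 1.49, adjusted p = 0.0307) at the late time point. *Gzmk* was nearly absent from controls, with 0 and 1 estimated counts on day 0 and 12 on day 18. It was at 109, 28.6 and 23.1 CPM in mid liver and at 50.2 and 17.6 CPM in late liver. All 5 of these liver libraries were above the controls, and the mid and late ranges overlapped. The *Gzmk* log2 fold change was 8.66 (SE 2.19, edgeR adjusted p = 0.0280) at the mid and 7.91 (SE 2.21, adjusted p = 0.0297) at the late time point, and it rests on 13 control counts. In the TG series, against a floor of 3 counts in its control library, *Gzmk* was at least 2418-fold higher in the mid and at least 1116-fold higher in the late library.

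*Gzmc*, the neighbour of *Gzmb*, rose from a much lower level. It had 5 and 1 estimated counts in day 0 controls and 3 in the day 18 control, which were 0.0750, 0.0196 and 0.0975 CPM. Mid liver libraries held 6.40, 5.30 and 2.96 CPM and late libraries 5.30 and 2.53 CPM, all above the controls and with overlap between mid and late. Its log2 fold change was 6.29 (SE 1.08, edgeR adjusted p = 0.0217) at the mid and 5.78 (SE 1.11, adjusted p = 0.0122) at the late time point, and it rests on 9 control counts.

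Granzyme M, which cleaves after methionine or leucine, followed another course. *Gzmm* was at 2.58, 0.900 and 1.72 CPM in the 3 controls, at 28.8, 6.39 and 1.24 CPM in mid liver and at 2.05 and 0.625 CPM in late liver. Mid replicates 1 and 2 were above the controls, whereas mid replicate 3 and both late libraries lay within or below their range. The log2 fold change from control was 2.21 (SE 0.96, edgeR adjusted p = 0.108) at the mid and -0.93 (SE 1.08, adjusted p = 0.508) at the late time point, so neither passed, although DESeq2 and the fit without the filter on low counts called *Gzmm* higher in mid liver.

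**Figure D2:**
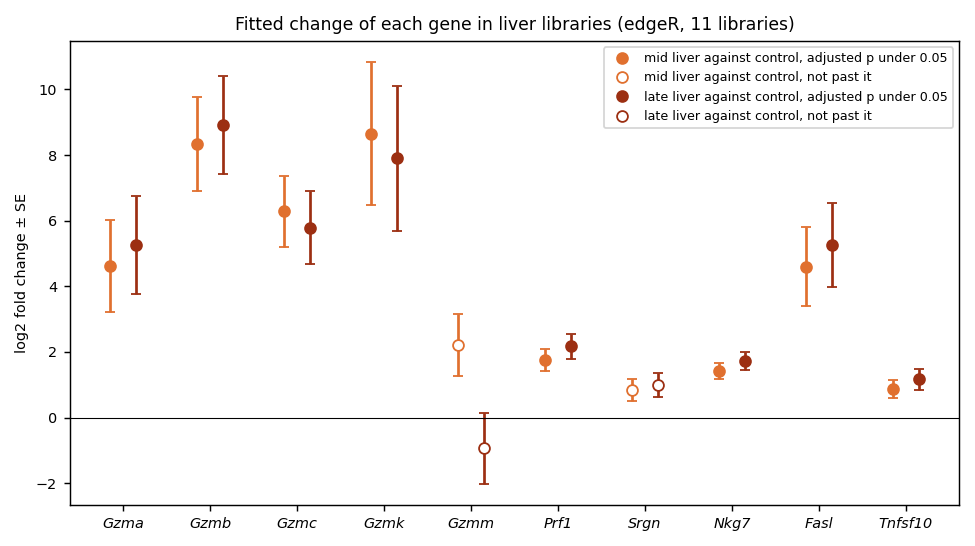
Fitted log2 fold change of each gene in mid liver (light) and late liver (dark) against the 3 controls, with standard errors, from the edgeR fit of 11 libraries; filled points passed an adjusted p under 0.05. The rises of *Gzmb*, *Gzmk*, *Gzmc*, *Gzma* and *Fasl* were between 4.59 and 8.92, those of *Prf1*, *Nkg7* and *Tnfsf10* were between 0.87 and 2.16, and *Gzmm* and *Srgn* were not called.

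Perforin was already present in controls. *Prf1* was at 49.2, 52.8 and 73.0 CPM in controls, at 285, 156 and 182 CPM in mid liver and at 352 and 224 CPM in late liver. Neither liver group overlapped the controls. Its log2 fold change was 1.75 (SE 0.33, edgeR adjusted p = 0.0220) at the mid and 2.16 (SE 0.37, adjusted p = 0.00999) at the late time point. *Nkg7*, a granule membrane protein needed for efficient degranulation, was at 965, 479.8 and 582 CPM in controls. It was at 3540.0, 1165 and 1310.4 CPM in mid liver and at 3936 and 1598 CPM in late liver. The highest value in each of these groups belonged to the TG series library, and the ranges of controls and liver still did not overlap. The *Nkg7* log2 fold change was 1.42 (SE 0.24, edgeR adjusted p = 0.0217) at the mid and 1.71 (SE 0.27, adjusted p = 0.00899) at the late time point. *Srgn*, the serglycin core protein, was at 379, 271 and 192 CPM in controls, at 475, 581 and 437 CPM in mid liver and at 604 and 547 CPM in late liver. Its liver values were above all controls, but the log2 fold change of 0.84 (SE 0.34, edgeR adjusted p = 0.0828) at the mid and 0.99 (SE 0.37, adjusted p = 0.0606) at the late time point did not pass. *Srgn* passed in late liver when the spleen libraries joined the fit, and in both liver groups by DESeq2's Wald test (42.5% of all genes in late and 37.3% in mid liver) and without the filter on low counts. Mast cells also express *Srgn*. The mast cell gene *Cpa3* was at 8.85 and 36.6 CPM in late liver and at most 1.44 CPM in mid liver. *Cma1* was at 0.645, 0.587 and 0 CPM in controls and 0.371 and 0.0852 CPM in late liver. *Mcpt1*, *Mcpt2*, *Mcpt4* and *Tpsb2* were at most 0.255 CPM in any library. The part of such cells in the *Srgn* level was not tested.

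Of the death ligands, *Fasl* rose strongly. It was at 2.14 and 1.82 CPM in day 0 controls and 0.195 CPM in the day 18 control, then at 36.6, 30.1 and 32.5 CPM in mid liver and at 66.0 and 48.4 CPM in late liver. *Fasl* was the only one of the 10 genes for which both late libraries lay above all 3 mid libraries, as 7.82% of all genes did. Its log2 fold change was 4.59 (SE 1.20, edgeR adjusted p = 0.0304) at the mid and 5.26 (SE 1.28, adjusted p = 0.0206) at the late time point. *Tnfsf10*, which encodes TRAIL, differed by less. It was at 9.97, 14.8 and 21.5 CPM in controls, at 15.6, 26.2 and 46.3 CPM in mid liver and at 25.9 and 35.3 CPM in late liver. Mid liver replicate 1 lay inside the control range, and its own TG series control was the lowest of the controls. The *Tnfsf10* log2 fold change of 0.87 (SE 0.28, edgeR adjusted p = 0.0439) at the mid and 1.16 (SE 0.31, adjusted p = 0.0224) at the late time point was not called at either time point once the series term was dropped, which also ended the mid calls of *Gzma* and *Nkg7*. Within the TG series the late to control ratio was 2.60, and within the XC series it was 1.95.

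These calls needed nearly all libraries. Without day 0 control replicate 1, late liver replicate 1 or late liver replicate 2, 0 of the 10 genes were called in late liver, where 149, 0 and 0 of all genes were called. Without day 0 control replicate 2 there were 6 calls (23.8% of all genes), which lost *Gzmk* and *Tnfsf10*. Without the day 18 control there were 7 (28.8% of all genes), which lost *Gzma*. In mid liver, 0 of the 10 were called without day 0 control replicate 1 or 2 or mid liver replicate 1 or 3. Of all genes, 1, 1, 0 and 0 were called in these fits. Without mid liver replicate 2 there were 5 calls (21.9% of all genes), which lost *Gzma*, *Gzmk* and *Fasl*. Without the day 18 control there were also 5 (16.5% of all genes), which lost *Gzma*, *Fasl* and *Tnfsf10*. The XC series alone gave 0 calls in both comparisons and 0 over all 13286 genes. The fitted directions did not turn: with 1 library left out, the late log2 fold changes stayed between 8.63 and 9.28 for *Gzmb*, 1.77 and 2.42 for *Prf1*, and 4.81 and 5.82 for *Fasl*. Those of *Gzma* ran from 4.78 to 6.51, and those of *Gzmk* from 6.43 without day 0 control replicate 1 to 11.58 without the day 18 control, which holds 12 of its 13 control counts. In mid liver *Gzmk* ran from 7.23 to 12.37 without the same libraries. Mid liver replicate 1 and late liver replicate 1 had the most hepatocyte RNA of their groups. The 8 markers summed to 176 and 299 CPM there, against 2.78 to 68.0 CPM in the other 3 libraries. Both also had the highest level in their groups of each of the 10 genes but *Srgn* and *Tnfsf10*. Late liver replicate 1 was the higher for *Srgn* too. The share of all genes for which this held was not counted, so it is not read as a result about the 10. Mid liver replicate 1 and late liver replicate 1 are the only TG series libraries of these groups. Hepatocyte RNA and series therefore cannot be told apart here. Day 0 control replicate 1, of the TG series, held 0.0600 CPM of these markers. It was the highest control for *Gzma*, *Gzmb*, *Gzmm*, *Fasl*, *Nkg7* and *Srgn*, but not for *Gzmc*, *Gzmk*, *Prf1* and *Tnfsf10*. The part of hepatocyte RNA was not tested.

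Late and mid liver libraries were then compared with each other. No gene of the 10 passed, and 0% of all 14596 genes did (edgeR). *Gzmm* had an unadjusted p under 0.05, alone among the 10, as did 5.34% of all genes. Its log2 fold change was -3.14 (SE 1.15, edgeR adjusted p = 0.912) from mid to late, and DESeq2 called 0 of the 10 (0.212% of all genes). *Gzmk* had a log2 fold change of -0.75 (SE 1.61, edgeR adjusted p = 0.978), which was 0.37 without mid liver replicate 1. For *Fasl*, the log2 fold change was 0.67 (SE 1.14, edgeR adjusted p = 0.976) although the libraries of the groups did not overlap.

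Early liver replicates stood far apart. *Gzmb* was at 228 CPM in replicate 1 and 5.09 in replicate 2, *Gzma* at 74.0 and 1.73, *Gzmk* at 33.8 and 0.0942, *Gzmc* at 6.25 and 0.408, *Gzmm* at 12.5 and 1.26, and *Fasl* at 25.4 and 0.785. For these 6 genes the ratio of replicate 1 to replicate 2 ran from 9.92 for *Gzmm* to 359 for *Gzmk*, the latter resting on 3 estimated counts in replicate 2. *Prf1*, at 152 and 74.9 CPM, *Srgn*, at 435 and 183 CPM, and *Nkg7*, at 816 and 481 CPM, differed 1.70-fold to 2.38-fold in the same direction. *Tnfsf10* was at 19.1 and 24.1 CPM and so was lower in replicate 1. Replicate 1 was within the mid liver range for *Gzma*, *Gzmc*, *Gzmk*, *Gzmm* and *Tnfsf10*, and replicate 2 was within the control range for *Gzma*, *Gzmk*, *Gzmm*, *Fasl* and *Nkg7*. With this spread, 0 of the 10 genes were called against controls by edgeR, as were 0% of all genes, while 6 had an unadjusted p under 0.05 (10.3% of all genes) and DESeq2 called 2, *Gzmb* and *Gzmc* (2.41% of all genes). Without replicate 2, 6 of the 10 were called (*Gzmb*, *Gzmc*, *Gzmk*, *Gzmm*, *Prf1* and *Fasl*), with 13.2% of all genes. That value rests on 1 early library, which the fit assumes to vary like the others. Both early replicates were above every control for *Gzmb*, *Gzmc* and *Prf1* (9.91% of all genes) and above both early spleen libraries for *Gzmc* and *Prf1* (11.8% of all genes).

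**Figure D3:**
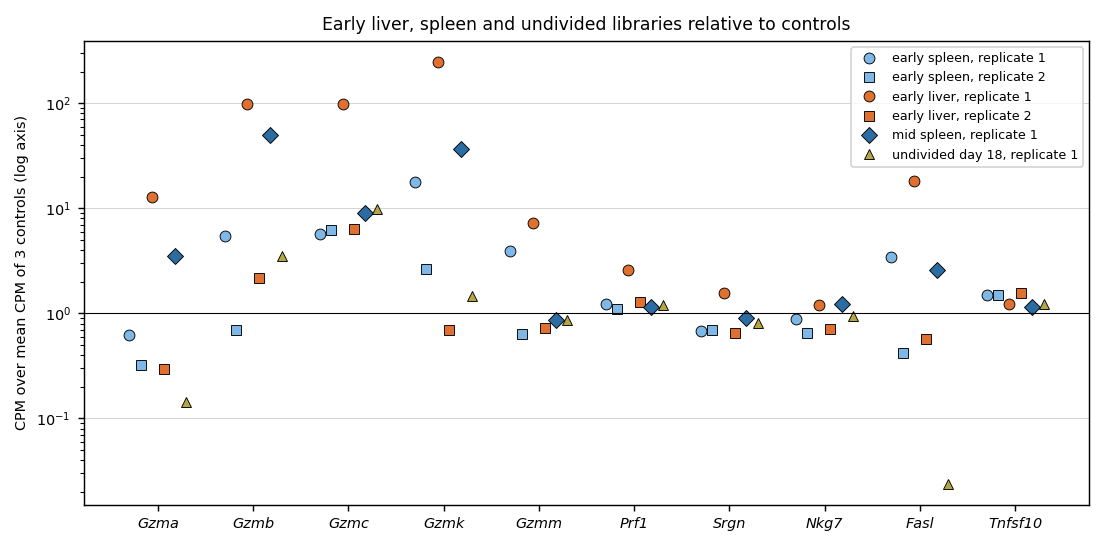
CPM of each gene in the early liver, early spleen, mid spleen and undivided libraries, divided by the mean CPM of the 3 controls, on a log axis; the line marks equal levels. Early liver replicate 1 is highest for *Gzmb*, *Gzma*, *Gzmk*, *Gzmc*, *Gzmm* and *Fasl*, the mid spleen library is next for *Gzmb*, *Gzma* and *Gzmk*, and the lowest point, *Fasl* in the undivided library, is 1 estimated count.

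Spleen libraries from leukemia-bearing mice were set against controls and against liver of the same time point. The mid spleen library had *Gzmb* at 117 CPM, *Gzma* at 20.2, *Gzmk* at 4.98, *Fasl* at 3.62, *Gzmc* at 0.571 and *Gzmm* at 1.50 CPM. The first 5 were above every control, as 28.7% of all genes were for this single library. *Prf1* at 67.3 CPM, *Srgn* at 254, *Nkg7* at 825 and *Tnfsf10* at 17.7 CPM lay within the control range. Against controls, 0 of the 10 passed in edgeR (0.00648% of all 15442 genes) and in DESeq2 (0.0777%). In edgeR, 4 had an unadjusted p under 0.05, as did 5.16% of all genes. *Gzmb* had a log2 fold change of 5.97 (SE 1.59, edgeR adjusted p = 0.840), and passed when only the mid spleen library and controls were fitted. All 3 mid liver libraries were above the mid spleen library for 8 of the 10 genes, as for 28.8% of all genes, the exceptions being *Gzmm* and *Tnfsf10*. Mean mid liver CPM was 6.54 times that of mid spleen for *Gzmb*, 10.7 times for *Gzmk*, 9.14 times for *Fasl* and 3.09 times for *Prf1*. The mid spleen library is of the XC series, and with the XC mid liver libraries alone these ratios were 5.42, 5.18, 8.65 and 2.51. None of the 10 passed edgeR's test of mid liver against mid spleen (0.00648% of all genes did) or DESeq2's (0.11%). In edgeR, 2 had an unadjusted p under 0.05, as did 5.8% of all genes. They were *Prf1* with a log2 fold change of 1.48 (SE 0.48, edgeR adjusted p = 0.711) and *Tnfsf10* with 0.93 (SE 0.39, adjusted p = 0.711).

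At day 7 in spleen, *Gzmb* was at 12.8 and 1.64 CPM, *Gzmk* at 2.41 and 0.364, *Gzmm* at 6.87 and 1.09, *Fasl* at 4.77 and 0.582 and *Gzma* at 3.62 and 1.86 CPM in replicates 1 and 2. Replicate 1 was the higher for each of them. *Gzmc* at 0.364 and 0.400 CPM and *Tnfsf10* at 23.2 and 23.0 CPM were above every control in both replicates, as were 8.11% of all genes. *Prf1* was at 72.0 and 63.6 CPM, *Nkg7* at 597 and 442 and *Srgn* at 189.6 and 195 CPM. None of the 10 was called against controls in edgeR (0% of all genes) or DESeq2 (0.0907%). In edgeR, 1 had an unadjusted p under 0.05 (6.29% of all genes). Between early liver and early spleen, edgeR called 0 of the 10 (0% of all genes) and DESeq2 0 (0.395%). In edgeR, 3 had an unadjusted p under 0.05 (9.03% of all genes). Without early liver replicate 2, *Gzmc* and *Srgn* were called there, with 6.3% of all genes. The test of whether the liver to spleen difference changed from the early to the mid time point called 0 of the 10 in edgeR (0.00648% of all genes) and in DESeq2 (0.013%). In edgeR, 0 had an unadjusted p under 0.05 (1.19% of all genes).

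In undivided cells from leukemia-bearing mice, 7 of the 10 genes lay within the control range. Their library had *Gzmb* at 8.29 CPM, *Gzma* at 0.829, *Gzmk* at 0.199, *Gzmc* at 0.630 and *Gzmm* at 1.49 CPM, and 1 estimated count of *Fasl*. *Gzmb* and *Gzmc* were above every control, and *Fasl* was below every control. The share of all genes outside the control range was not counted for this library, so these positions are not read as a result. For the mid spleen library, also alone in its group, 28.7% of all genes were above and 22.5% below every control. *Prf1* at 69.9 CPM, *Nkg7* at 635, *Srgn* at 225 and *Tnfsf10* at 19.1 CPM were within the control range. Against controls, 0 of the 10 and 0% of all genes were called by edgeR, and DESeq2 called 0 of the 10 (0% of all genes). In edgeR, 1, *Gzmc*, had an unadjusted p under 0.05 (1.25% of all genes). Both late liver libraries were above the undivided library for 9 of the 10 genes, all but *Gzmm*, as for 39.6% of all genes. Since the undivided library came from spleen, this comparison changes tissue as well as the sort on the division dye, which cannot be told apart. With 1 undivided library, 0 of the 10 and 0% of all genes passed edgeR's test of late liver against it, and 6 had an unadjusted p under 0.05, as did 25.9% of all genes. DESeq2 called 5 (*Gzma*, *Gzmb*, *Prf1*, *Fasl* and *Nkg7*) and 12.9% of all genes.

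To compare genes with each other, the deposited TPM, transcript abundances scaled for length and depth, were summed per gene. *Nkg7* had the highest TPM of the 10 in all 14 libraries, from 606 to 3145. *Srgn* was next in all controls, at 259.5 to 362 TPM, whereas *Gzmb* was at 1.30 to 1.80 TPM there. In late liver *Gzmb* reached 726 and 468 TPM beside 380.4 and 611 TPM of *Srgn*, so their order differed between the replicates. *Gzma* followed at 213 and 173 TPM, then *Prf1* at 75.1 and 87.1 TPM. *Gzmk* at 27.9 and 16.2 TPM and *Fasl* at 18.8 and 20.5 TPM again traded places, and *Tnfsf10* at 5.11 and 7.87, *Gzmc* at 3.26 and 2.61 and *Gzmm* at 0.873 and 0.443 TPM closed the order in both. *Gzmm* thus moved from rank 5, 6 or 8 of the 10 in controls to rank 10 in late liver, and *Gzmb* from rank 6 or 7 to rank 2 or 3.

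The make-up of the granzyme pool changed along with its size. The 5 granzymes summed to 12.2 and 10.3 TPM in day 0 controls, 3.91 in the day 18 control, 8.91 in undivided cells, 24.3 and 5.74 in early spleen, 118 in mid spleen, 311 and 8.18 in early liver, 814, 275 and 757 in mid liver and 971 and 659 TPM in late liver. In day 0 controls *Gzma* made up 69.7% and 79.8% of this sum and *Gzmb* 14.7% and 13.1%. In the day 18 control *Gzmm* was the largest part, at 37.8%. *Gzmb* held 57.8%, 67.0% and 80.5% in mid liver and 74.7% and 70.9% in late liver, and already 72.8% in mid spleen and 64.6% in undivided cells, where the sum was small. *Gzmk* was 9.01%, 10.4% and 2.88% of the pool in mid liver and 2.87% and 2.45% in late liver. *Gzmm* was 2.05%, 2.18% and 0.136% of it in mid liver and 0.0899% and 0.0673% in late liver. These shares are descriptions and were not tested.

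**Figure D4:**
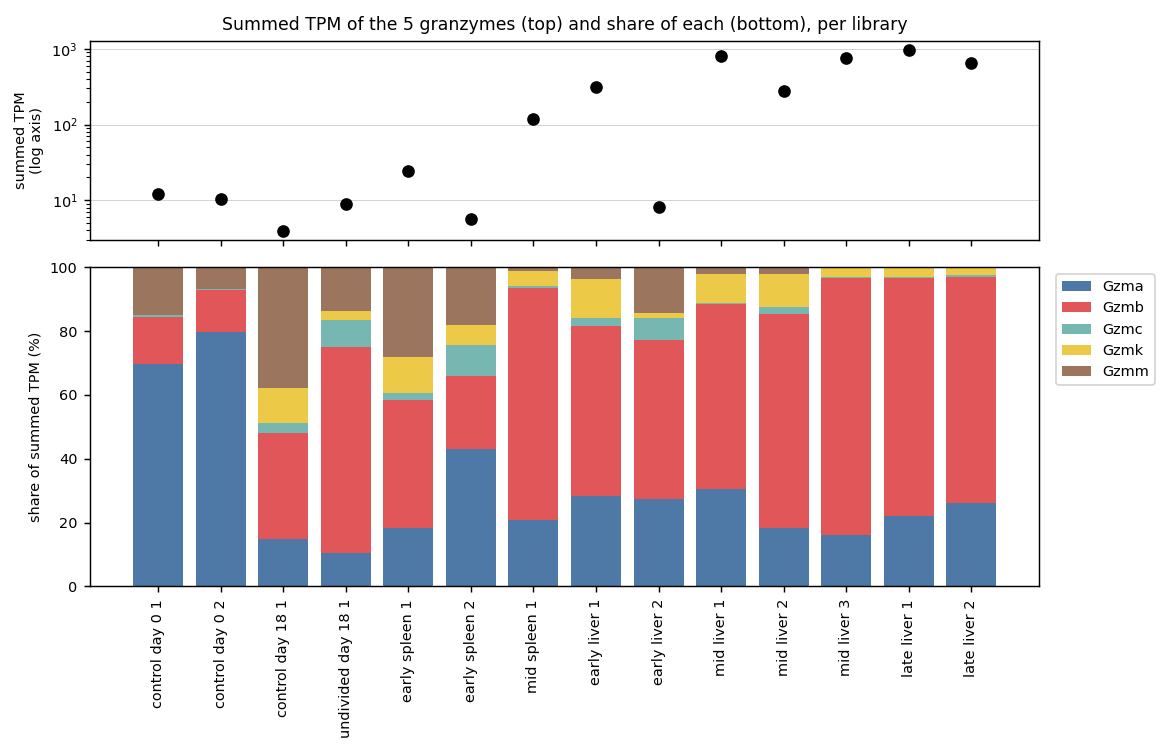
Summed TPM of the 5 granzymes per library on a log axis (top) and the share of each granzyme in that sum (bottom, stacked to 100%). *Gzma* holds most of the small sum in day 0 controls, and *Gzmb* holds 57.8% to 80.5% of the sum in mid and late liver.

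Shares of the transcripts of a gene differed between the series for some genes. *Gzmb* and *Gzmc* have 1 transcript each, and the first transcript of *Gzma* and of *Fasl* carried at least 91.3% of the gene's estimated counts in every library. A transcript with a retained intron took 21.2% to 26.7% of *Nkg7* in the 3 TG libraries and 1.20% to 9.15% in the 11 XC libraries. *Prf1-201* took 3.95% to 14.5% in TG and 20.2% to 37.2% in XC libraries, and *Srgn-205* 7.71% to 13.6% and 24.0% to 33.3%. Fold changes of these genes between libraries of different series rest on the series term. Of the 31-base words in *Gzmc* transcripts, 14.8% also occur in other genes, most of them in *Gzme*, so the *Gzmc* estimate is less certain. For *Gzmb* the share was 1.35%, and for *Gzma*, *Gzmk*, *Gzmm*, *Fasl* and *Nkg7* it was 0%.

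Genes around this core were examined in lists. The other granzymes *Gzmd*, *Gzme*, *Gzmf*, *Gzmg* and *Gzmn* were at most 0.469 CPM in all 14 libraries, and 0 of 5 passed the filter on low counts. Of 14 genes of granule maturation, 4 were higher and 1 was lower in late liver, beside 19.8% and 17.7% of all genes. *Cst7* (cystatin F, an inhibitor of granule cathepsins) had a log2 fold change of 2.06 (SE 0.31, edgeR adjusted p = 0.00869). *Gnptab* and *Igf2r*, which tag enzymes with mannose 6-phosphate and receive them, had 1.70 (SE 0.28, adjusted p = 0.00940) and 0.82 (SE 0.21, adjusted p = 0.0206). *Calr* (calreticulin) had 0.91 and the cathepsin gene *Ctsl* -1.54, while *Ctsc*, the granzyme-activating cathepsin C, was at 145, 133 and 164 CPM in controls and 83.9 and 277 CPM in late liver and did not pass. Of 15 exocytosis genes, 4 were higher and 2 lower, beside the same shares of all genes, and neither count is read as a result about its list. *Stx11*, the syntaxin whose loss causes familial hemophagocytic lymphohistiocytosis, rose by 3.16 on the log2 scale (SE 0.60, edgeR adjusted p = 0.0127), from 7.17, 4.93 and 6.11 CPM in controls to 48.5 and 61.7 CPM in late liver. *Vamp8*, *Vamp7* and *Sytl2* had 1.21, 0.71 and 1.35, and *Vamp2* and *Sytl1* had -1.03 and -1.36. The median log2 fold change was 0.39 for the maturation and 0.30 for the exocytosis list, beside -0.03 for all genes.

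Granzymes can harm the cell that makes them, and serpins in its cytosol inhibit them. Of the 4 serpin genes tested, 2 were higher and 0 lower in late liver, beside 19.8% and 17.7% of all genes. With so few genes this count is not read as a result about the list. *Serpinb9*, the inhibitor of granzyme B, was at 23.3, 21.3 and 21.6 CPM in controls, 189.2, 121 and 128 CPM in mid liver and 126 and 63.7 CPM in late liver. Its log2 fold change in late liver was 1.91 (SE 0.59, edgeR adjusted p = 0.0394) and that of *Serpinb6b* was 2.49 (SE 0.60, adjusted p = 0.0197). Of 10 receptor and adaptor genes tested, 2 were higher and 2 lower in late liver by edgeR. These counts are near the shares of all genes and are not read as a result. *Tnfrsf1b* (2.44, edgeR adjusted p = 0.00647) and *Tradd* (0.80) were higher, and *Ripk1* (-0.62) and *Cflar* (-0.86), an inhibitor of caspase-8, were lower. *Fas*, the receptor of Fas ligand, was at 28.9 to 33.2 CPM in controls and 21.3 and 24.2 CPM in late liver and was not called. Of the 4 other ligands of the family, *Tnf*, *Lta*, *Ltb* and *Tnfsf12*, 0 were called in late liver. In mid liver 2 were higher, *Tnf* (2.71) and *Lta* (3.01), beside 17.3% of all genes.

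Among 8 regulators of cytotoxic genes, 3 were higher and 0 lower in late liver, beside 19.8% and 17.7% of all genes. *Bhlhe40* had a log2 fold change of 6.08 (SE 1.32, edgeR adjusted p = 0.0160), *Tbx21* (T-bet) 3.79 (SE 0.86, adjusted p = 0.0174) and *Prdm1* (Blimp-1) 3.49 (SE 0.61, adjusted p = 0.0102). *Tbx21* was at 6.73, 8.33 and 14.7 CPM in controls, at 178, 171 and 212 CPM in mid liver and at 166 and 104 CPM in late liver. *Eomes* was higher in mid liver, with a log2 fold change of 2.61 there (edgeR adjusted p = 0.0454), and *Runx3*, *Id2*, *Stat4* and *Zeb2* were not called at the late time point. Without late liver replicate 1 or 2, 0 genes of any list were called in late liver, as 0 of all genes were.

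**Figure D5:**
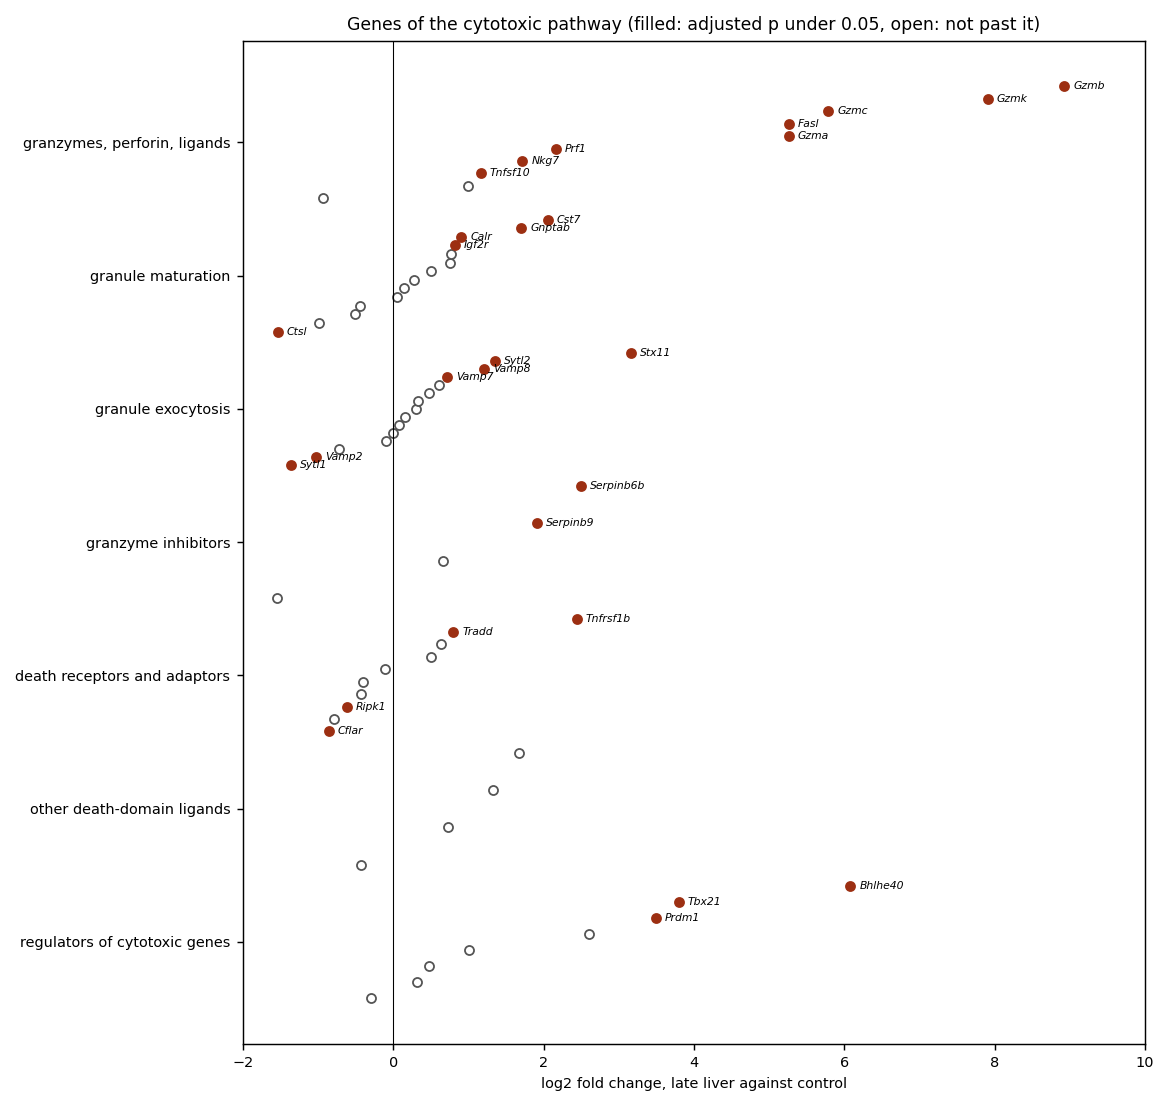
Log2 fold change in late liver against control (x axis) for the 10 genes and for 6 lists of the pathway (rows), 1 point per gene tested; filled points passed an adjusted p under 0.05 in edgeR and are named. The largest rises in the granule lists are *Stx11* at 3.16 and *Cst7* at 2.06, and the regulators reach 6.08 with *Bhlhe40*.

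The genes whose levels ran most like each member were ranked by Pearson's r of log2 CPM over the 14 libraries, among 9016 well-expressed genes. These libraries share series and conditions, so r describes these data only. For *Gzmb* they were *Uhrf1* (r = 0.992), a DNA methylation maintenance factor, and *Mcm3* (0.990), a subunit of the replicative helicase. For *Gzmk* they were *Tbx21* (0.978) and *Zbtb32* (0.977), for *Fasl* *Klrk1* (0.976), which encodes NKG2D, and *Plek* (0.964), and for *Gzmc* the chemokine gene *Xcl1* (0.969) and *Pop1* (0.967). *Gzma* ran with *Fhl2* (0.984) and *Nt5dc2* (0.981), *Prf1* with *Capg* (0.978) and *Pam16* (0.977), *Nkg7* with *Psmd8* (0.991) and *Prdx2* (0.990) and *Srgn* with *Zfp330* (0.963) and *Gabarapl1* (0.955). *Tnfsf10* was closest to *Cep41* (0.923) and *Cd101* (0.908), and *Gzmm* to *Surf2* (0.856) and *Trmt61a* (0.845). Within the 10 genes, the closest pair was *Fasl* and *Gzma* (0.952) and the most distant *Tnfsf10* and *Gzmm* (-0.30), and no r of *Gzmm* with another member exceeded 0.507.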

How the data were processed

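Low-input RNA-seq of sorted TCRTg101 was read on an Illumina HiSeq. Per the labels and file headers, the authors quantified each run with kallisto against the mouse transcriptome (mm10/GRCm38; versions are not given in the sources used here) and deposited estimated counts and TPM per transcript. The 25 runs of 14 libraries were used: estimated counts were summed over runs and over transcripts of a gene (GENCODE vM21, 116515 of 118783 transcripts matched) and rounded to whole numbers. Runs of a library were counted as 1 sample. A gene entered a fit if 6 or more libraries had 10 or more of its counts. Tests used edgeR 4.0.16 (TMM, robust quasi-likelihood test, series as covariate, Benjamini-Hochberg adjustment over all genes tested, R 4.3.3). The SE of a log2 fold change is its size over the root of the F statistic. Liver, undivided and control libraries (11) were fitted together, and all 14 for spleen comparisons. CPM are TMM-scaled. The scripts were tested on simulated counts. Alternatives were RLE size factors, no series term, no filter, the first run only, the XC series only, day 0 controls only, all libraries or only the groups compared, DESeq2 1.42.0 and leaving out each library. Counting depth, 22918996 to 71358287 estimated counts, limits the genes with few counts, *Gzmc* and *Gzmk* in controls above all. One day 0 library primed with oligo-dT was kept out of the fits. The members and the gene lists were chosen with earlier results of these data known, and the named genes are the 10 members, the list genes that passed in late liver against control and, for each member, the closest genes by r. Marker genes of other cell types and the other granzymes, neighbours of *Gzmb* and *Gzmc*, were named for their levels. *Ctsc*, *Fas*, *Tnf*, *Lta*, *Ltb*, *Tnfsf12*, *Eomes*, *Runx3*, *Id2*, *Stat4* and *Zeb2* fall outside that rule and were named after their values were seen.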

Additional observations from a re-analysis of the deposited data

Results flagged for a closer look

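A further day 0 library, primed with oligo-dT, entered no comparison. It drew attention because *Tnfsf10* was at 23.9 CPM there, without TMM scaling, against 10.2 and 15.3 CPM in the day 0 control libraries. In the same library *Gzmb* was at 2.00 CPM, *Gzma* at 7.00, *Prf1* at 31.8 and *Nkg7* at 275 CPM. It is a single library and the difference was not tested.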

How the results depend on the processing

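No paired analysis was possible because replicate numbers were given in accession order and the labels do not pair libraries across groups. The number of the 10 genes called in late liver against control was 8, and between 7 and 9 under the other settings that kept both series, but 0 in the XC series alone and 0 to 7 with 1 library left out. Under the settings that kept both series, 18.4% to 42.5% of all genes were called in late liver. In mid liver the number was 8, with 10 by DESeq2 and without the filter on low counts (37.3% and 19.4% of all genes). It was 5 without the series term (9.48%), 5 with day 0 controls only (16.5%), 0 in the XC series alone and 0 to 5 with 1 library left out. Without the filter on low counts, calls rose to 7 for early liver (5.03% of all genes), 4 for undivided cells (1.12%), 7 for late liver against undivided cells (8.49%), 4 for early spleen (1.96%), 5 for mid spleen (1.92%), 5 for early liver against early spleen (3%), 5 for mid liver against mid spleen (2.3%) and 1 for late against mid liver (1.48%). DESeq2 gave 2 calls for early liver (2.41%) and 5 for late liver against undivided cells (12.9%). Fitting only the groups compared gave 1 call for mid spleen (0.175%). With 1 library left out, early liver gave 0 to 6 calls and early liver against early spleen 0 to 2. Late against mid liver, the log2 fold change of *Gzmk* ranged from -1.01 without late liver replicate 1 to 0.37 without mid liver replicate 1, where its sign turned. The cause of these changes was not tested. Leaving libraries out changed both their number and which ones were fitted. Where a group kept 1 library, that library was assumed to vary like the others.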
